A study of Mus musculus with 10 samples.

Results

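Smooth muscle and actin cytoskeleton genes were examined in spontaneous mouse lymphomas, for 10 genes: Acta2, Actg2, Tagln, Cnn1, Myh11, Myl9, Des, Cald1, Vim and Synpo. These are 10 of the 27827 gene or transcript names on the array, and every non-control probe that the array files list under them was taken, 19 of 41174 probes. The genes were chosen for how they differed between the genotypes in these same arrays, so their genotype differences are given as a description, with no test. Of the 19 probes, 16 were well above background on at least 3 of the 10 arrays and could be compared, and 3 could not: 1 probe each of Acta2, Vim and Synpo was well above background on 0 arrays.

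The +/L group is 5 mice that carry 1 wild-type and 1 LIP allele of C/EBPβ, LIP being the short isoform of this transcription factor, and the +/+ group is 5 wild-type mice. The +/L mice numbered 866, 688, 23, 517 and 20 were 11, 18, 20, 20 and 21 months old, and the +/+ mice numbered 17, 19, 40, 101 and 11 were 20, 23, 26, 26.5 and 29 months old, so age and genotype overlap only in part. The labels give +/L mouse 20 and +/+ mice 101 and 11 as male and the others as female. All were housed free of pathogens until lymphomas arose spontaneously, and RNA of frozen lymphoma from each mouse was measured on 1 single-colour Agilent array. A lymphoma piece is a mixture of tumour cells, other leukocytes, vessels and stroma, and in such bulk RNA fewer cells of a type and less RNA per cell cannot be told apart.

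Smooth muscle cells contract when myosin filaments pull on actin filaments, and their actins, myosin chains and actin-binding proteins are largely switched on together by serum response factor (SRF) with its partner myocardin, which bind CArG boxes in DNA. Cytoplasmic actins and many actin regulators answer to SRF through the related MRTF partners in nearly all cells. In lymphoid organs these genes mark vessel walls, pericytes, the capsule and reticular stroma, whereas vimentin, an intermediate filament, is also abundant in leukocytes.

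A level is log2 of the processed signal relative to the 75th percentile of its array, so that 0 is the 75th percentile, and levels of different probes are not compared. The signal at the 75th percentile was 309 to 651 on +/L and 199 to 340 on +/+ arrays, and 48.0% to 66.7% of spots per array were well above background. The defining lymphocyte markers were present on all arrays: Cd79a and Cd79b for B cells and Cd3e and Cd3d for T cells were each well above background on 10 of 10. The lowest B cell marker sum was that of +/L mouse 866 (51.9, against 178 to 309 in the other tumours) and the lowest T cell sum that of +/L mouse 20 (22.0, against 60.0 to 269); such a sum adds the linear levels of a list, in multiples of the array's 75th percentile. By sex-linked transcripts 2 arrays, those of +/L mouse 20 and +/+ mouse 11, did not match their labels, and for 2 others, those of +/L mouse 866 and +/+ mouse 17, the slide in the label differs from that in the file header. Values without these pairs are given where they matter. The set of female-labelled mice leaves out +/L mouse 20 and +/+ mice 11 and 101. It therefore lies inside the set without mice 20 and 11, and is no separate check.

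Acta2, the smooth muscle α-actin, was represented by 4 comparable probes, which did not behave alike. The probe of highest mean (A_51_P450957), called the upstream probe here because it starts at base 298 of the transcript record, read 3.56, 4.48, 4.34, 3.49 and 3.33 in the +/L mice 866, 688, 23, 517 and 20. In the +/+ mice 17, 19, 40, 101 and 11 it read 4.54, 5.89, 5.23, 5.71 and 5.06. Every +/L tumour was below every +/+ tumour, although +/L mouse 688 and +/+ mouse 17 nearly met. The means were 3.84 ± 0.53 and 5.28 ± 0.54 (SD, n = 5 each), a log2 difference of -1.44 ± 0.33 (SE), or 2.72-fold lower in +/L.

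Actg2, the smooth muscle γ-actin, followed the same pattern. Its probe (A_51_P241269) read 1.77, 2.85, 2.47, 1.88 and 1.89 in the +/L and 2.87, 4.48, 3.77, 4.17 and 3.61 in the +/+ tumours, with the mice in the same order. The groups again did not overlap, and the same +/L and +/+ tumours, 688 and 17, stood closest to each other. The difference was -1.61 ± 0.34 (SE). Within the 3 slides of the file headers, which held 2, 1 and 2 +/L and 2, 2 and 1 +/+ arrays, Actg2 differed by -0.94, -2.56 and -1.44 and the upstream Acta2 probe by -0.97, -2.24 and -1.14. Another probe, chosen after its values were seen, had a like difference: a transcript that the files list only as TC1765066 differed by -1.45, from 4.09 ± 0.54 in +/L to 5.54 ± 0.53 in +/+ tumours. Its probe and the upstream Acta2 probe share a run of 17 bases, the longest that any comparable member probe shares with another probe of the array, and whether they are separate measurements was not tested. The upstream Acta2 probe is shown because its values set it apart from the other Acta2 probes; in mm9 the files place it at chr19:34322995-34326249, a span wider than a 60-base probe.
Acta2 A_51_P450957: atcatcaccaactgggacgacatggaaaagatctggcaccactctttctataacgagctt
Whether these probes also bind RNA of other actin genes was not tested.

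**Figure D1:**
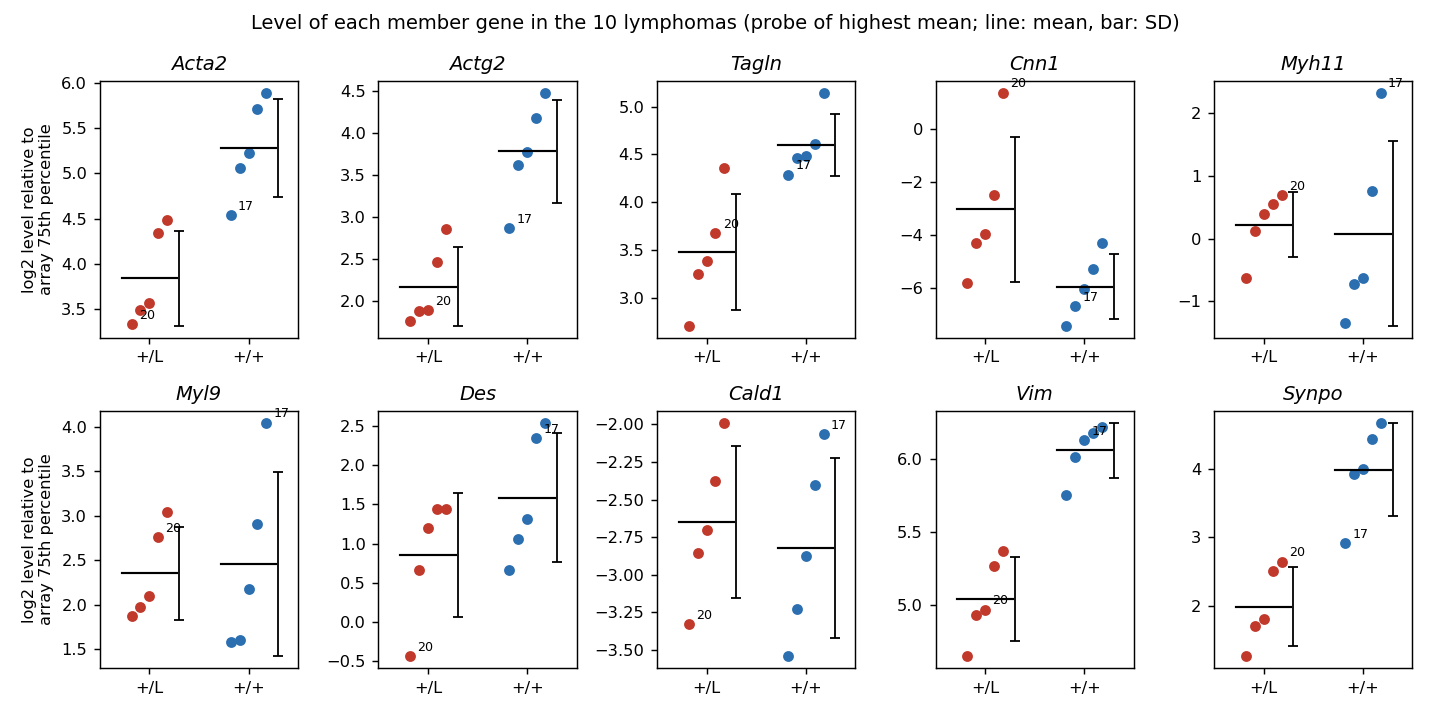
Log2 level (y axis, relative to the 75th percentile of the array) of each member gene's probe of highest mean in 5 +/L tumours (red) and 5 +/+ tumours (blue); each point is 1 tumour, the line is the group mean and the bar the SD, and +/L mouse 20 and +/+ mouse 17 are numbered. Acta2, Actg2, Vim and Synpo have no overlap between groups, Cnn1 is lifted by mouse 20 at 1.36, and Myh11 and Myl9 are highest in mouse 17.

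With all tumours included, the other Acta2 probes gave smaller differences. A probe printed in 10 spots per array (A_52_P420504, base 1241 of the record, chr19:34316060-34316119) read 1.61, 2.33, 2.31, 0.77 and 2.48 in the +/L and 4.11, 2.45, 2.27, 1.80 and 2.31 in the +/+ tumours. Its groups overlapped, with +/L mice 517 and 866 below and +/+ mouse 17 above the range of the other group. The tumour of mouse 17, the lowest of its group by the upstream probe, was the highest by this one. The SD between its spots on 1 array had a median of 0.040 over the arrays; the upstream probe has 1 spot, so its own printing error is not measured. The difference of the 10-spot probe was -0.69 ± 0.47 (SE), and -0.31 without +/+ mouse 17. It was -1.15 with age as a term, -1.19 in female-labelled mice and -0.90 without mice 20 and 11. In these settings the upstream probe differed by -1.27, -1.25 and -1.37. The probe at base 1604 (A_52_P210078) differed by -0.13 ± 0.69, with a sign that turned in 4 of 20 settings. A_52_P239556, well above background on only 1 +/L and 2 +/+ arrays, differed by -0.28 ± 0.63. Without mice 20 and 11 these probes differed by -0.61 and -1.18, and in female-labelled mice by -0.75 and -1.30. Without mice 866 and 17 they differed by 0.30 and 0.09.

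Tagln, transgelin, an actin-binding protein of smooth muscle, had 2 probes that also differed in size of effect. The probe of highest mean (A_51_P450527) read 3.25, 4.36, 3.39, 2.71 and 3.68 in the +/L and 4.29, 4.61, 5.14, 4.49 and 4.46 in the +/+ tumours. Only +/L mouse 688 reached into the +/+ range, above +/+ mouse 17. The difference was -1.12 ± 0.31 (SE), with -0.70, -1.30 and -1.41 within the slides. The second probe (A_52_P517683, chr9:45738916-45738975 in mm9) differed by -0.33 ± 0.50, with overlapping groups, and by 0.10 without +/L mouse 517, whose level of -2.41 was the lowest. It is printed because it has more forward reading frames without a stop codon than the other Tagln probe (2 against 1). It was also the Tagln probe that correlated more with the 10-spot Acta2 probe. With levels taken relative to the genotype mean, that r was 0.69, and 0.50 without +/L mouse 517. Its r was lower with Myl9 (0.48), Myh11 (0.36) and Cald1 A_52_P599578 (0.31).
Tagln A_52_P517683: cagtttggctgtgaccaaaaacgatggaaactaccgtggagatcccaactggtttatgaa

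Cnn1, calponin, which binds actin and restrains myosin, went the other way, but from few measured arrays. It was well above background on 3 +/L and 1 +/+ arrays. The levels were -4.28, -2.49, -3.95, -5.81 and 1.36 in the +/L and -6.67, -5.26, -4.30, -6.02 and -7.42 in the +/+ tumours. The tumour of +/L mouse 20 stood far above all others, mice 866, 688 and 23 lay just above or above the highest +/+ tumour, and mouse 517 lay inside the +/+ range. The difference of 2.90 ± 1.18 (SE) was 1.80 without +/L mouse 20, 1.43 without mice 20 and 11, 1.08 on normexp-corrected values and 0.85 in the deposited value table; the normexp setting's offset of 50 shrinks differences of dim probes by itself.

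The tumour of +/L mouse 20 also carried epithelial keratins. Krt18, a keratin of simple epithelia, was at 6.59 there against -2.59 to -0.42 in the other 9 tumours, and its partner Krt8 at 3.90 against -6.35 to -1.37; both were picked from the list after their values were seen. The summed level of the 8 measured mesothelial and epithelial markers was 117 in this tumour, 0.907 to 1.96 in the other +/L tumours and 0.760 to 1.87 in the +/+ tumours. Krt18 and Krt8 are among these 8 markers and made up most of the 117, so the sum is not separate from their levels. Its defining markers were Msln, mesothelin, at -2.39 and Upk3b at -3.67 in mouse 20, both well above background, and Msln was higher in +/L mice 866 and 688, at -1.28 and -1.41. The part of these cells in the Cnn1 difference was not tested.

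The myosin genes Myh11 and Myl9 had mean differences between the genotypes that were smaller than their SEs. Myh11, the smooth muscle myosin heavy chain, read -0.63, 0.55, 0.39, 0.12 and 0.70 in the +/L and 2.33, -0.72, 0.77, -1.35 and -0.63 in the +/+ tumours. The +/+ group was much wider than the +/L group, with SDs of 1.48 and 0.52, because +/+ mouse 17 was high and mouse 101 low. The difference was 0.14 ± 0.63 (SE) and turned its sign in 7 of 22 settings. Myl9, a myosin regulatory light chain, read 1.88, 3.05, 2.10, 1.97 and 2.76 in the +/L and 4.04, 2.17, 2.90, 1.60 and 1.58 in the +/+ tumours. Again +/+ mouse 17 was highest, and the difference of -0.11 ± 0.48 turned its sign in 7 of 22 settings, among them the deposited value table (0.03). In female-labelled mice Myh11 and Myl9 differed by -0.69 and -0.79, and without mice 866 and 17 by 0.92 and 0.41.

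Des and Cald1 showed no gap between the groups either. Des, desmin, the intermediate filament of muscle, was measured in 10 spots per array and read 1.43, 1.44, 1.19, 0.66 and -0.44 in the +/L and 2.35, 1.06, 2.54, 1.31 and 0.66 in the +/+ tumours. The lowest level was that of +/L mouse 20, and 2 +/+ tumours, mice 17 and 40, were above all +/L tumours. The difference was -0.73 ± 0.47 (SE), -0.40 without mouse 20, -1.55 with age as a term, and -1.94, 0.25 and 0.27 within the slides, so that only the first slide had the direction of the whole. Cald1, caldesmon, which binds actin and tropomyosin, had 2 probes: A_51_P357573 differed by 0.17 ± 0.34, and by -0.04 in the deposited value table, and A_52_P599578, well above background on 4 +/L and 3 +/+ arrays, by 1.42 ± 0.60. The second probe read -2.55, -3.25, -3.43, -3.23 and -2.29 in the +/L and -2.34, -4.71, -3.62, -5.60 and -5.56 in the +/+ tumours. Of the +/+ tumours, mouse 17 alone was as high as the highest +/L tumours. Without it the difference was 1.92, with age as a term 0.35, on normexp-corrected values 0.20 and by the deposited values 0.12.

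Vim and Synpo separated the groups. Vim, vimentin, read 5.37, 4.93, 5.27, 4.64 and 4.97 in the +/L and 6.13, 6.02, 6.22, 6.18 and 5.75 in the +/+ tumours by A_51_P392687 (chr2:13504232-13504291 in mm9). The spread inside the groups was the smallest of the 16 probes, with SDs of 0.29 and 0.19, and no tumour overlapped. The difference was -1.03 ± 0.20 (SE), with -1.23, -0.73 and -0.80 within the slides, and it stayed between -1.27 and -0.69 in all 22 settings. Synpo, synaptopodin, which bundles actin in kidney podocytes and neurons, read 1.28, 2.51, 1.72, 1.81 and 2.65 in the +/L and 2.91, 3.93, 4.43, 4.66 and 3.99 in the +/+ tumours by A_52_P62986. Its groups did not overlap, the difference was -1.99 ± 0.38 (SE), and with age as a term it was -1.20. The other comparable Synpo probe, A_51_P123676, differed by -0.66 ± 0.27 with overlapping groups.

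In all, 12 of the 16 probes were lower and 4 higher in +/L tumours, and by the probe of highest mean 7 genes were lower and 3 (Cnn1, Myh11 and Cald1) higher. The groups did not overlap for 4 probes, all lower in +/L, where 1.22% of all 26410 probes were lower without overlap and 0.579% higher. In limma, fitted over all probes, 0% of probes had an adjusted p under 0.05 for genotype (0 of 26410, smallest adjusted p = 0.12), and at an unadjusted p under 0.05 4.67% were lower and 3.29% higher in +/L, or 1233 and 870 probes. This balance depends on the scaling: with each array scaled by the median of its well-measured probes 1018 were lower and 1057 higher, and with the slide of the file headers as a block 886 and 974. Of the members 0 had an adjusted p under 0.05 in limma, and 6 probes were lower and 2 higher at the unadjusted threshold; since this contrast chose them, nothing is read from these counts. The median difference of the 16 probes was -0.49. The sign was the same in every setting tried for 10 of the 16 probes, and turned at least once for Myh11, Myl9, 1 probe each of Tagln and Cald1 and 2 of Acta2.

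**Figure D2:**
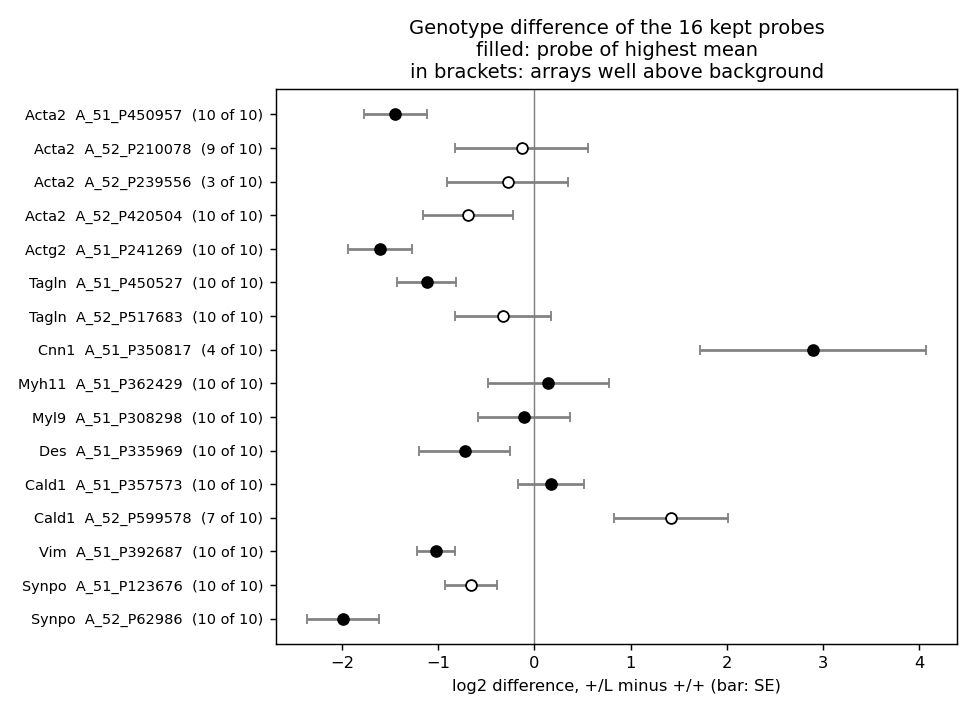
Log2 difference between +/L and +/+ tumours (x axis, bar: limma SE, 5 tumours per group) for the 16 comparable probes (y axis, with the number of arrays well above background); filled points are each gene's probe of highest mean. Upstream Acta2, Actg2, Vim and Synpo lie at -1.03 or below, Cnn1 at 2.90, and probes of 1 gene differ from each other for Acta2, Tagln, Cald1 and Synpo.

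To see which members vary together apart from genotype, each level was taken relative to its genotype mean. Inside the genotypes the upstream Acta2 probe went with Actg2 (Pearson r = 0.97, exact within-genotype permutation p = 0.00056, adjusted p = 0.033; Spearman rho = 0.93, p = 0.0012, adjusted p = 0.035; n = 10 tumours). Among 60 such relations tested, it was the only one with an adjusted p under 0.05 for r, and r was 0.94 without the 2 tumours farthest from the median. Of the 26406 other probes, Actg2 ranked 5 and TC1765066 (r = 0.99) ranked 1 in likeness to the upstream Acta2 probe. Cytoplasmic γ-actin, Actg1, was next among the relations tested (r = 0.75, exact permutation p = 0.0019, adjusted p = 0.056; rho = 0.87, p = 0.0011, adjusted p = 0.035), with r = 0.66 without the 2 farthest tumours. The correlation with β-actin, Actb, was 0.59 (exact permutation p = 0.095, adjusted p = 0.44; rho = 0.49, p = 0.19, adjusted p = 0.70).

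The upstream Acta2 probe did not go with the other probes of its own gene. Its r was -0.24 with the 10-spot probe, -0.63 with A_52_P210078 and -0.21 with A_52_P239556, and over the alternatives tried the first of these ranged from -0.47 to 0.32. The 10-spot probe went instead with Myl9 (r = 0.80, exact permutation p = 0.0097, adjusted p = 0.17; rho = 0.65, p = 0.054, adjusted p = 0.49) and Myh11 (r = 0.77, p = 0.025, adjusted p = 0.19; rho = 0.58, p = 0.099, adjusted p = 0.49; exact permutation tests). Tpm2, β-tropomyosin, stood with them (r = 0.87, exact permutation p = 0.011, adjusted p = 0.17; rho = 0.77, p = 0.018, adjusted p = 0.37). None of these 3 passed the adjusted threshold. Without the 2 farthest tumours, r was 0.67 for Myl9, 0.72 for Myh11 and 0.68 for Tpm2. Without +/L mouse 866 and +/+ mouse 17 it fell to 0.50 for Myl9 and 0.38 for Myh11, and mouse 17 was high in all 3.

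**Figure D3:**
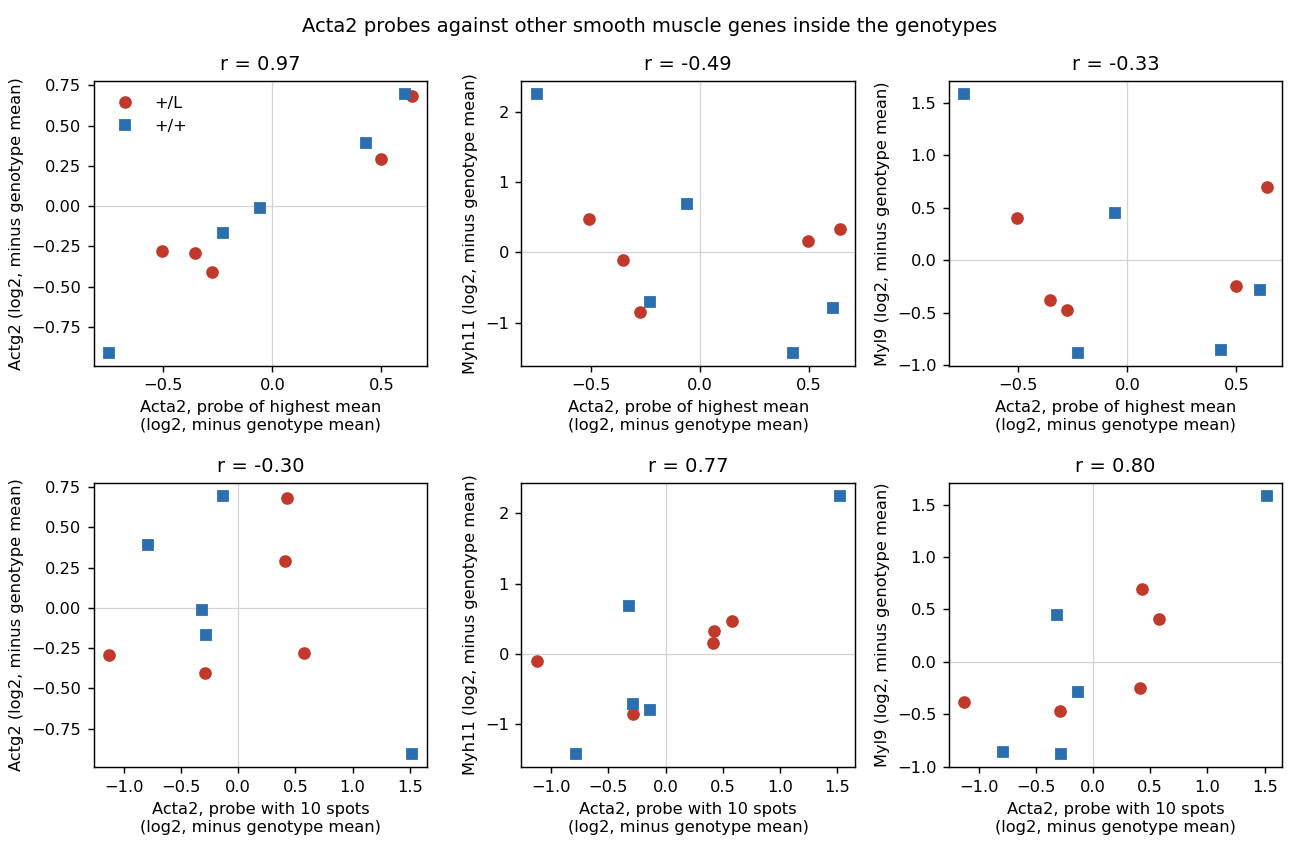
Log2 levels minus the genotype mean in 10 tumours (+/L red circles, +/+ blue squares) for the upstream Acta2 probe (upper row, x axis) and the 10-spot Acta2 probe (lower row, x axis) against Actg2, Myh11 and Myl9 (y axes). The upstream probe follows Actg2 (r = 0.97) and the 10-spot probe follows Myh11 (r = 0.77) and Myl9 (r = 0.80).

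The remaining members formed further groups, given as a description over the same 10 tumours. Myh11 and Myl9 correlated at 0.93 with each other and at 0.84 and 0.85 with the Cald1 probe A_52_P599578. The second Tagln probe correlated at 0.69 with the 10-spot Acta2 probe, and the other one at 0.45 with the upstream Acta2 probe. Des went with the Cald1 probe A_51_P357573 (0.74), and Cnn1 with the dim Acta2 probe A_52_P239556 (0.83), both high in +/L mouse 20. The 2 Synpo probes correlated at -0.46 with each other. The weaker one, A_51_P123676, went with Vim (r = 0.81, exact permutation p = 0.020, adjusted p = 0.19; rho = 0.83, p = 0.026, adjusted p = 0.38). Of the group of Myh11, Myl9 and Cald1 A_52_P599578, the probes of Myh11 and Cald1 are shown. They lie in mm9 at chr16:14195223-14198147 and chr6:34703475-34703534.
Myh11 A_51_P362429: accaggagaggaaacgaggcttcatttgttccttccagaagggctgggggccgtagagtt
Cald1 A_52_P599578: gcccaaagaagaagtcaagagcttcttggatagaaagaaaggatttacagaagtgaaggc

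**Figure D4:**
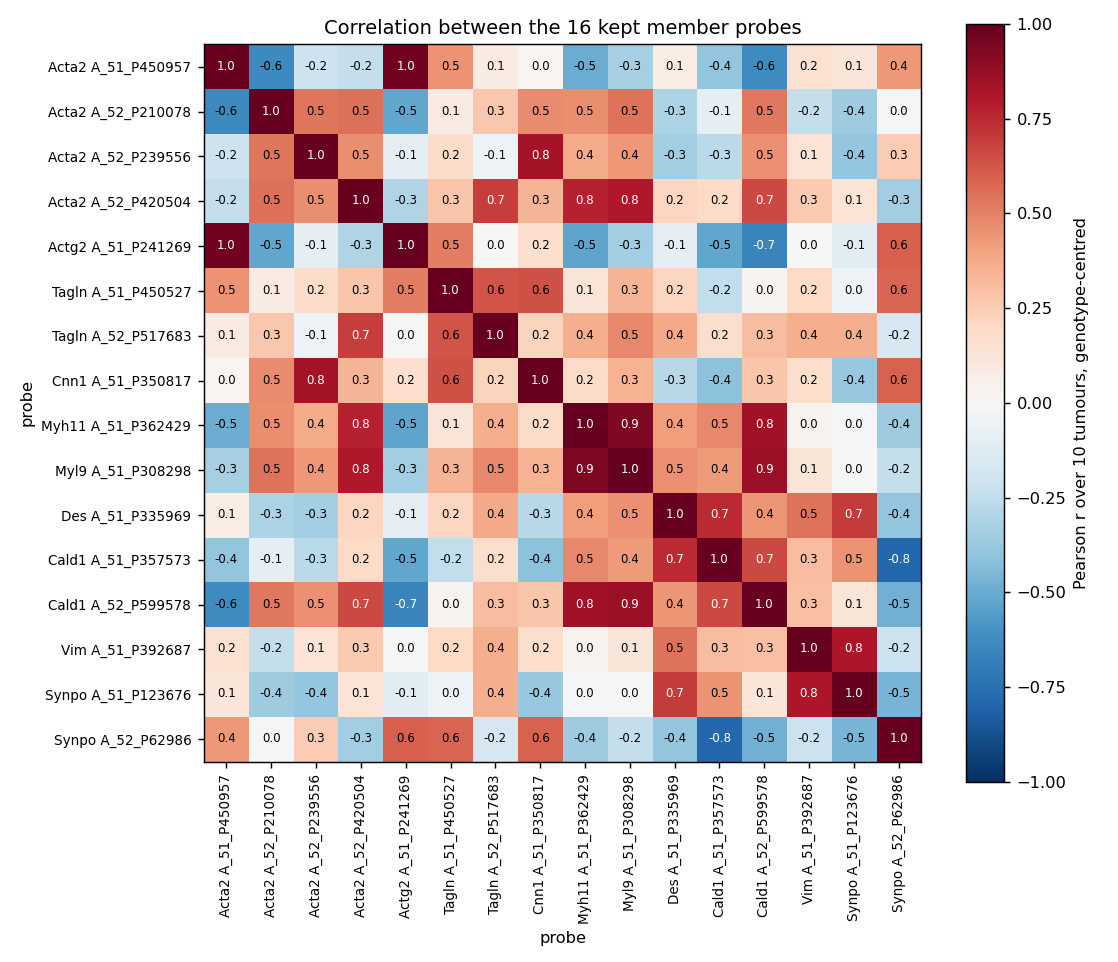
Pearson correlation of genotype-centred log2 levels over 10 tumours between all pairs of the 16 comparable probes (both axes: gene and probe; colour and number: r). The upstream Acta2 probe and Actg2 form 1 pair, Myh11, Myl9, the 10-spot Acta2 probe and a Cald1 probe another group, and the 2 Synpo probes are negatively correlated.

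Gene lists for the cell types of a lymphoid tumour were set beside the members in the same way, as descriptions with no test, since list genes share the arrays and each other's source cells. For comparison, the median r over all 17775 genes was between -0.14 and 0.12 for each of the 16 probes. The 10 T cell genes all correlated positively with the upstream Acta2 probe (median r = 0.69) and with Actg2 (0.61), and all negatively with the 10-spot Acta2 probe (-0.38) and with Myh11 (-0.44). The pericyte and endothelial lists did the reverse for these probes. Of 7 pericyte genes 0 correlated positively with upstream Acta2 or with Actg2, and 7 with the 10-spot probe, Myh11, Myl9, Des and both Cald1 probes, with medians of 0.44 to 0.80. Of 12 endothelial genes 1 correlated positively with upstream Acta2 and with Actg2, and 11 with each of those 6 probes. The lists were not opposed for every probe. All 10 T cell genes also correlated positively with Des (median r = 0.35), and 8 with Cald1 A_51_P357573 (0.18). Of 32 smooth muscle genes that are not members, 13 correlated positively with upstream Acta2 (median r = -0.05) and 11 with Actg2 (-0.19). With the 10-spot probe 26 did (0.355), and with Myh11 24 (0.48). Of 47 genes of cytoplasmic actins and their regulators, 35 correlated positively with upstream Acta2 (0.45) and 35 with Actg2 (0.39). With the 10-spot probe 18 did (-0.14), and with Myh11 19 (-0.04).

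The summed levels of these lists overlapped between the genotypes. The T cell sum was 22.0 to 173 for the +/L group and 60.0 to 269 for the +/+ group. The pericyte sum was 7.56 to 17.9 against 5.60 to 34.0, and the endothelial sum 33.6 to 51.7 against 19.1 to 62.1. The highest pericyte and endothelial sums were those of +/+ mouse 17, the tumour highest in Myh11, Myl9 and the 10-spot Acta2 probe. The defining markers Rgs5 and Pdgfrb for pericytes and Pecam1 and Cdh5 for endothelium were well above background on all 10 arrays. The part of these cells in the members' levels was not tested.

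Other members went with other lists. For Tagln A_51_P450527 the median r was 0.85 with the 9 adipocyte genes, of which 8 were positive; their sum was 21.0 to 175 for +/L against 14.9 to 80.1 for +/+ and was highest in mouse 688, the highest +/L tumour for Tagln. For Cnn1 it was 0.72 with the 8 mesothelial and epithelial genes, all positive. The tumour of +/L mouse 20 was highest both in Cnn1 (1.36) and in the sum of this list (117), most of which came from Krt18 and Krt8. Cnn1 was well above background on only 4 arrays. Its median r was also 0.65 with 11 skeletal muscle genes and 0.54 with the 9 adipocyte genes. For Des and Cald1 A_51_P357573 it was 0.64 and 0.79 with the 16 fibroblast and matrix genes, of which 16 and 13 were positive; their sum was 76.9 to 342 for +/L, highest in mouse 866, against 68.2 to 179 for +/+. The defining markers Col1a1 and Col1a2, Adipoq, and the adipocyte protease Cfd were well above background on 10, 10, 10 and 9 arrays. The part of these cells in the levels of Tagln, Cnn1, Des and Cald1 was not tested.

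Vim went with macrophage genes, and less closely with other lists. Of the 11 macrophage genes 10 correlated positively with Vim (median r = 0.56), whereas 0 of 10 B cell genes did (-0.44). Positive too were 15 of 16 fibroblast and matrix genes (0.47) and all 9 adipocyte genes (0.39). The macrophage sum was 262 to 813 for +/L against 569 to 885 for +/+, lowest in +/L mice 20 and 517, although Cd68, a lysosomal protein of macrophages, was highest in mouse 20, at 5.00. Lyz2, the brightest gene of the list (means of 7.96 in +/L and 8.42 in +/+), weighed heavily in this sum. The r of Lyz2 with Vim was -0.03. In the list 8 of 11 genes were lower in +/L, with a median difference of -0.52, where 51.9% of all 17775 genes were lower. At the unadjusted limma threshold 3 were lower (C1qa, C1qb and C1qc, by -1.44, -1.58 and -1.33). The 2 higher there were the scavenger receptor Cd163 (4.41, well above background on only 3 arrays) and the mannose receptor Mrc1 (2.58). Of all probes 4.67% were lower and 3.29% higher at this threshold, and none of the list passed the adjusted one. Its defining markers Cd68 and Csf1r were at 2.84 ± 1.55 and 4.02 ± 1.06 in +/L and 3.81 ± 0.34 and 5.00 ± 0.44 in +/+ tumours (SD, n = 5 each). Both were well above background on all arrays, and their part in the Vim difference was not tested.

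**Figure D5:**
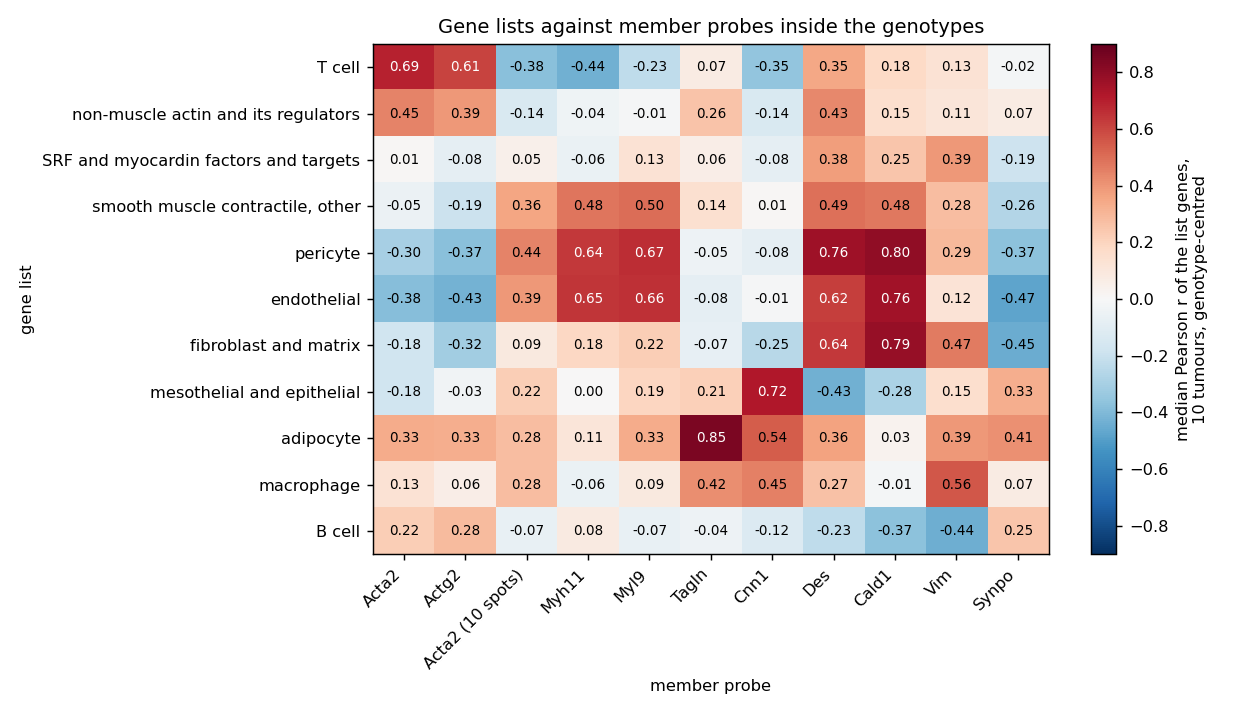
Median Pearson r (colour and number, 10 tumours, genotype-centred levels) between the genes of each list (rows) and the member probes (columns, probe of highest mean except where marked as 10 spots). T cell genes follow upstream Acta2 and Actg2 (0.69 and 0.61), pericyte and endothelial genes follow Myh11, Myl9, Des and Cald1, adipocyte genes follow Tagln (0.85) and macrophage genes follow Vim (0.56).

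Fits over all probes, with genotype as a term, asked which probes rise with a member. In limma 0% of probes had an adjusted p under 0.05 for a slope on upstream Acta2 (smallest adjusted p = 0.42), on the 10-spot Acta2 probe (0.74) or on Vim (above 0.99), so the likeness below is a ranking. On the upstream Acta2 probe, 3.56% of 26406 probes had a positive and 5.44% a negative slope at an unadjusted p under 0.05 (941 and 1436 probes), a balance that turned to 1019 and 524 with normexp and 1061 and 529 in the deposited value table. Of 12 member probes of other genes, 1 was positive (Actg2, 0.98 ± 0.18, limma adjusted p = 0.54) and 1 negative (Cald1 A_52_P599578, -1.23 ± 0.52, adjusted p = 0.55). On the 10-spot probe the shares were 1.47% and 0.534%, and 4 of 12 member probes were positive, Myl9 (0.82 ± 0.23), Myh11 (1.06 ± 0.31), Tagln A_52_P517683 (0.75 ± 0.28) and Cald1 A_52_P599578 (0.86 ± 0.33), each with a limma adjusted p above 0.99, and 0 negative. On Vim the shares were 2.58% and 1.42%, and 1 of 15 member probes was positive (Synpo A_51_P123676, 1.37 ± 0.48, adjusted p above 0.99) and 0 negative.

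The named genes most like upstream Acta2 inside the genotypes, by the p of this slope over the 10 tumours, were Nrn1 (r = 0.93), Rpl29 (0.95), Ntrk3, Scube1, Scin, Nrgn, Meltf, Celsr1, Rprd1b and Eepd1. Scin is scinderin, a severing protein of actin filaments (r = 0.87). Those most like the 10-spot probe were Vwc2 (r = 0.94), Metrn, Phkg1, Fez1, C1qtnf9, Nnat, Tpm2 (0.87), Smoc2, Acta1, the skeletal muscle actin (0.85), and C1qtnf2. Those most like Vim were Lst1 (r = 0.94), P2ry6, Sirpa, Tmem51, Hacd4, Pla2g15, Slc11a1, Fcer1g, Acp2 and Slc5a11. Sirpa is the inhibitory receptor for CD47, Slc11a1 a metal transporter of phagosomes, and Fcer1g the signalling chain of Fc receptors (r = 0.94, 0.89 and 0.88).

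Age was not used to choose the members. With genotype as a term, 0% of probes had a limma adjusted p under 0.05 for age (smallest adjusted p = 0.70), and 2.93% had a positive and 3.67% a negative slope at an unadjusted p under 0.05. Of the 16 member probes 6 had a positive and 10 a negative slope. The slope of Synpo A_52_P62986 was 0.11 ± 0.045 log2 units per month (limma adjusted p = 0.70, unadjusted p = 0.031) and that of Cald1 A_51_P357573 was -0.11 ± 0.039 (adjusted p = 0.70, unadjusted p = 0.024). These were 1 positive and 1 negative probe of 16 at the unadjusted threshold, and 0 passed the adjusted one.

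The rest of the pathway was read from lists of genes that are not members. Among 32 measured smooth muscle genes of 35 listed, 0 passed the limma adjusted threshold for genotype, 1 was higher and 0 lower at the unadjusted one, and 12 were lower and 20 higher with a median difference of 0.15; over all 17775 genes the median was -0.02 and 51.9% were lower. Their genes of lowest p were Synm, the intermediate filament synemin (2.14 ± 0.90, SE, well above background on 8 arrays), Lmod1, leiomodin, an actin nucleator (1.21 ± 0.56), and Flna, filamin A, which crosslinks actin (-0.73 ± 0.34), with limma adjusted p-values of 0.61 to 0.63. A second Synm probe differed by 0.23. The list as a whole thus held both directions, with more genes higher. The members were chosen on this contrast, so their own directions are not compared with those of the list.

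A list of SRF, its partners and targets, which also holds TGF-β ligands, receptors and Smads, had mostly lower values in +/L. Of 21 measured genes 18 were lower and 3 higher (median -0.17), where 51.9% of all 17775 genes were lower. At the unadjusted threshold in limma 4 were lower and 1 higher, where 4.67% of all probes were lower and 3.29% higher, and 0 passed the adjusted one. Srf itself differed by -0.14 and its partner Mrtfa by -0.48, while Mrtfb, the 1 gene higher at the unadjusted threshold, differed by 0.99, with another probe at -0.89. Myocd was not measured. Tln1, talin, which ties integrins to actin, differed by -0.95 ± 0.26 and Tgfb1, the growth factor TGF-β1, by -0.84 ± 0.26 (SE; limma adjusted p = 0.59 each). In the 12 immediate early and handling stress genes, 11 were lower in +/L (median -0.54), and their sum was 50.2 to 88.8 for +/L against 87.4 to 160 for +/+. Some immediate early genes answer to SRF and to the handling of tissue alike, and their part in these differences was not tested.

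Most cytoplasmic actins and their regulators had lower values in +/L. Of 47 genes 38 were lower and 9 higher (median -0.29), and by the deposited values 29 were lower and 18 higher (median -0.12). Over all 17775 genes 51.9% were lower. At the unadjusted threshold in limma 6 were lower and 1 higher, against the same shares of all probes (4.67% and 3.29%), and 0 passed the adjusted one. Those shares include dim probes, whereas most genes of this list were well above background on all 10 arrays. Among all probes of that kind, 1255 were lower and 599 higher at the unadjusted threshold. Arpc4, a subunit of the Arp2/3 complex that branches actin, differed by -0.64 ± 0.20, Lasp1, an actin-binding adaptor, by -0.62 ± 0.20 and Rock1, the kinase that drives actomyosin contraction, by 0.57 ± 0.19 (SE; limma adjusted p = 0.59 each). The other Lasp1 probes differed by -0.34, -0.41 and 0.47, the last against the direction of this one. Actb and Actg1 differed by -0.66 and -0.70, and +/L mouse 20 was the lowest tumour for both, at 4.39 and 4.83. Of 12 other intermediate filament genes 5 were lower and 7 higher (median 0.68), with Lmna, nuclear lamin A, at -0.91 ± 0.36 and Krt19, a keratin well above background on 5 arrays, at 1.79 ± 0.81 (limma adjusted p = 0.60 and 0.63).

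Promoter sequence could be looked up for 6 of the 10 members (Acta2, Cald1, Cnn1, Des, Myl9 and Vim, 7 start sites) in RefSeq sequences of GRCm38.p6, another build than that of the probes. The 250 bases before each start were searched on both strands for the CArG box, CC and GG around a core of 6 bases that are A or T, a motif that reads as the same class on either strand, and for the same with at most 1 other base in the core. Of all 32851 promoters 1.47% hold the strict and 8.59% the relaxed form. Myl9 holds 1 strict box and 1 relaxed one, 161 and 99 bases before the start, and Acta2 holds 2 relaxed ones, 84 and 34 bases before it. The windows of Cald1, Cnn1, Des and Vim hold neither form, which says only that these letters are not in this window. The 2 windows with a match are shown, with the matches in capitals, on the strand of the gene: Acta2 at chr19:34255374-34255623 (minus strand) and Myl9 at chr2:156775214-156775463 (plus strand).
Acta2 promoter: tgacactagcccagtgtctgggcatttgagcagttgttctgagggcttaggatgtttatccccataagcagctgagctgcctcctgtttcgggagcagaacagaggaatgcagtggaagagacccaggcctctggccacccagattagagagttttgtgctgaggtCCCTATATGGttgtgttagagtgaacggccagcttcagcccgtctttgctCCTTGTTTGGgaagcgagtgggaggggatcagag
Myl9 promoter: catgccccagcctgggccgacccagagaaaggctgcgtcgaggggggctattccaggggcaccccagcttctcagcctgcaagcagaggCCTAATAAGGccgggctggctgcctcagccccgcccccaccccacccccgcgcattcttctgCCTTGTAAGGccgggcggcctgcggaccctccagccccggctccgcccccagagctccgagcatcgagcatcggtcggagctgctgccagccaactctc
Both genes carry such a match. By the probe of highest mean the genotype difference was -1.44 ± 0.33 (SE) for Acta2. For Myl9 it was -0.11 ± 0.48, smaller than its SE. The 10-spot Acta2 probe differed by -0.69 ± 0.47. Any part of these matches in the genotype differences was not tested.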

How the data were processed

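The authors' spot intensity is the output of Feature Extraction 10.5.1.1 (Agilent) per the file headers, and probe coordinates in the files are mm9. A deposited value table of log2 values served as an alternative; how the authors normalized it was not given in the sources used here. Here, log2 of the processed intensity minus the array's 75th percentile was used, without control spots or outlier spots, and repeated spots were averaged per probe. Kept were the 26410 of 41174 probes well above background on 3 or more arrays.

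Genotype, age and slopes on Acta2 and Vim were fitted over all kept probes with limma 3.58.1 (lmFit, eBayes) in R 4.3.3, adjusted by Benjamini-Hochberg at 0.05. Slopes carried genotype as a term and left out all probes of the reference gene. The procedure was tested on simulated data. Correlations used genotype-centred levels and exact permutation within genotypes (14400 arrangements, two-sided), adjusted over 60 relations. The mice are separate animals. A gene stood for its probe of highest mean. Named were all members, the 3 genes of lowest p in each of 4 pathway lists, the 10 genes most like Acta2 and Vim, and the 2 first genes of each marker list; 1 of these genes and some probe sequences are not reported here, and other names were chosen after their values were seen. The members and lists were chosen with earlier results of these data known. Names of list genes were brought up to date through RefSeq. Alternatives changed background correction, scaling, filter, probe rule, slide block, age, sex and arrays; leaving out mice 866 and 17, and the 10-spot Acta2 probe, were added after seeing the data. Exon and UTR annotation was not used here.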

Additional observations from a re-analysis of the deposited data

Results flagged for a closer look

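In 32 groups of 5 tumours (16 probes, 2 genotypes), 2 held 1 tumour set far from the other 4, by a gap that chance gives in about 1 in 20 groups. For the dim Acta2 probe A_52_P239556, +/L mouse 20 stood at -3.15 above the next tumour at -5.60, a gap of 0.742 of the group's range. For the 10-spot Acta2 probe A_52_P420504, +/+ mouse 17 stood at 4.11 above the next at 2.45, a gap of 0.718 of the range.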

How the results depend on the processing

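The counts past an adjusted p of 0.05 in limma were 0 for genotype, age and the slopes on Acta2 and Vim, and kept that value in 80 of 83 settings. For genotype, 1 probe passed with normexp and quantile normalization and 1 in the deposited value table; leaving out 1 tumour gave 0 to 3, the 3 without +/L mouse 517. At an unadjusted p under 0.05 the counts ranged from 963 to 3640 for genotype, 803 to 4850 for age, 1197 to 3679 for the slope on the upstream Acta2 probe (528 for the 10-spot probe) and 726 to 2005 for Vim. Of 348 alternative values of members' genotype differences, 333 moved by less than 1 SD. Scaling moved the median difference of all probes from 0.01 to between -0.02 and 0.04. No paired analysis was possible because the replicate numbers are mouse numbers, none shared between genotypes. Precision is limited by 5 arrays per group, and for Cnn1, Cald1 A_52_P599578 and Acta2 A_52_P239556 by signal near background.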
